A study of Homo sapiens with 6 samples.

Results

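Solute carriers are the membrane proteins that move amino acids, sugars, ions, nucleosides, metals, vitamins and other small molecules into and out of cells and organelles. They were examined here in the Kasumi-1 line, human myeloblasts of an acute leukaemia in which t(8;21) fuses RUNX1 and RUNX1T1. The members were all protein-coding genes of the deposited table whose symbol starts with SLC and a digit, without the mitochondrial SLC25A family and without SLC2A3. This rule gave 105 of the 7983 listed genes, and 101 of the 105 had a mean of at least 10 normalized read counts over the 6 libraries and were tested. The 4 others were SLC38A4, SLC4A10, SLC9C1 and SLC9C2. GENCODE release 29 annotates 325 protein-coding genes that meet the same rule, so 32.3% of them were listed, against 35.2% of all protein-coding genes (7016 of 19951). By class the share listed ran from 28.6% for carriers of sugars and polyols to 44.1% for carriers of metals and haem.

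Cells in which CRISPR/Cas9 had been directed at SETD8 (sgSETD8, knockout, 3 libraries) were set against cells given a non-targeting guide (sgNT, control, 3 libraries). SETD8, now named KMT5A, puts a methyl group on a lysine of histone H4. Both groups were the same line (genotype SETD8 knockout, against WT), grown in RPMI-1640 with 10% fetal bovine serum, streptomycin and penicillin. Polyadenylated RNA was sequenced with a strand-marking kit. The sources used here do not say whether the numbered libraries came from separate cultures, clones or guides, so p-values measure only the spread between these libraries, which may be technical. In bulk RNA, fewer cells of a type and less RNA per cell cannot be told apart.

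As background, solute carriers work either as facilitators, which let a substrate run down its own gradient, or as coupled carriers, which use the gradients of sodium, protons or another solute. Those gradients come from the sodium-potassium pump at the cell surface and the vacuolar proton pump in endosomes and lysosomes. Genes of a family number share ancestry and mostly substrate type, but sit in different membranes. In leukaemic blasts solute carriers are best known for the uptake of glutamine, leucine and cystine, for folate and antifolate entry, and for the entry of nucleoside drugs such as cytarabine.

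KMT5A itself was lower in the knockout, at 879.7, 933 and 939 normalized counts in knockout libraries, against 1191, 1212 and 1255 in control libraries. All 3 knockout libraries lay below all 3 control libraries (log2 fold change -0.41, SE 0.07, limma-trend adjusted p = 5.65e-05). The RNA was still present in the knockout, and neither the edit nor the protein is shown by these counts. The authors' deposited table lists genes with p-values up to 0.049998 before adjustment, so the members had already been selected for a difference, and a carrier outside the table was not analysed here. Reads in listed genes numbered from 10966349 to 12557974 per library. Markers of t(8;21) myeloblasts were present in both groups: KIT averaged 43551 ± 793 normalized counts in knockout libraries and 60704 ± 955 in control libraries (SD, n = 3 each). Granule genes moved with the genotype, with MPO at 1541 ± 27.3 in knockout libraries and 12254 ± 373 in control libraries, and PRTN3 at 1754 ± 53.4 in knockout libraries and 58.2 ± 8.27 in control libraries. The part of this difference in maturation markers in the results on carriers was not tested.

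Among the 101 tested members, 60 were higher and 38 were lower in the knockout at limma-trend adjusted p below 0.05, and 3 did not pass (SLC38A10, SLC7A5 and SLC4A11). Over all 7516 tested genes 94.1% were called, with 47.3% of the tested genes higher and 46.7% lower, so that being called says little about a member, and its direction and size say more. The median log2 fold change of the members, knockout over control, was 0.28, against 0.14 over all tested genes. By a log2 fold change of at least 1, 13 members were higher and 8 lower, beside 8.34% and 10.7% of all tested genes in those directions. Of the 6837 tested protein-coding genes alone, 496 were higher and 595 lower by that measure, and their median log2 fold change was 0.16. The 3 knockout libraries did not overlap the 3 control libraries for 95 of 101 members, against 95.4% of all tested genes. Most members given below library by library were chosen for a large change without overlap. The separation of their groups was fixed by that choice and is no further evidence. Replicates lay close together: for the 87 members with a mean of at least 100, the median coefficient of variation was 5.95% over knockout libraries and 6.90% over control libraries. With 1 library left out at a time, 51 to 57 members were called higher and 31 to 38 lower.

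**Figure D1:**
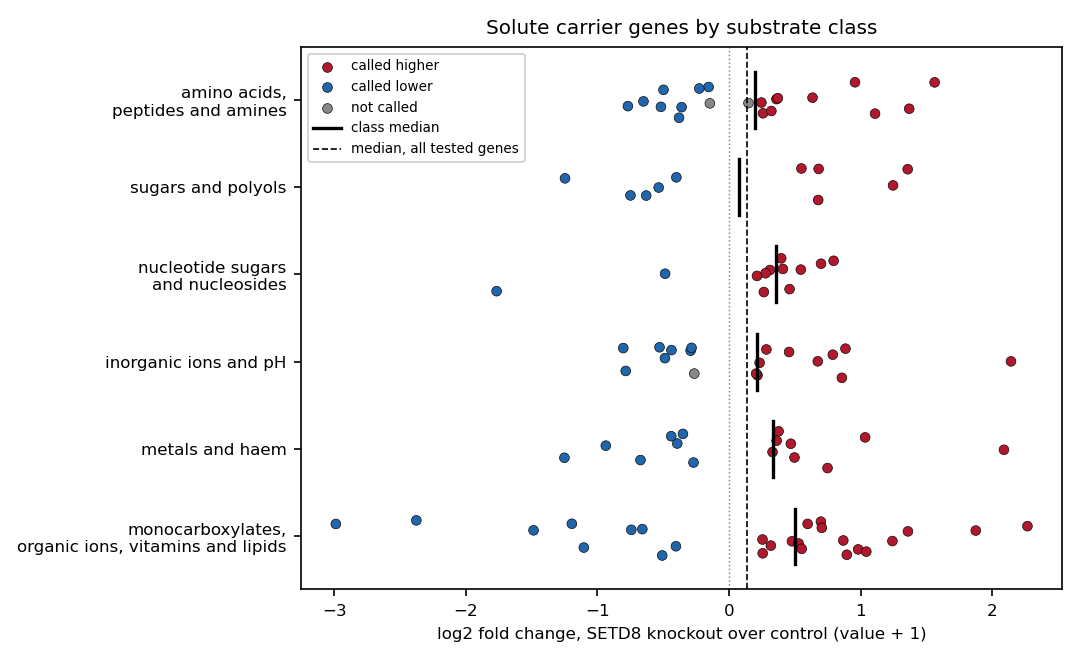
Each point is 1 of the 101 tested solute carriers, placed by its log2 fold change (SETD8 knockout over control, horizontal axis) within its substrate class (vertical axis), with colour for the call and a mark for the class median. Points lie on both sides of 0 in every class, and carriers of nucleotide sugars and nucleosides have 10 of 12 points to the right of 0.

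By substrate class, set by family number, the counts of members called higher and lower were 10 and 8 of 20 tested for amino acids, peptides and amines, 5 and 5 of 10 for sugars and polyols, and 10 and 2 of 12 for nucleotide sugars and nucleosides. They were 10 and 7 of 18 for inorganic ions and pH, 8 and 7 of 15 for metals and haem, and 17 and 9 of 26 for monocarboxylates, organic ions, vitamins and lipids. Class medians of the log2 fold change ran from 0.07 for sugars to 0.50 for monocarboxylates and the carriers grouped with them. With the median change of neighbouring genes (described next) taken off, the medians were -0.062 for amino acids, 0.092 for sugars, 0.22 for nucleotide sugars, 0.0063 for ions, 0.10 for metals and 0.42 for monocarboxylates. The plot of fold changes by class shows members on both sides of 0 in each of the 6 classes. Among single families with at least 5 tested members, SLC35 had 9 of 10 called higher. SLC2, counted with SLC2A4RG, had 4 of 6 called lower. The rule also takes in 3 genes that are named for a carrier but are not carriers: SLC2A4RG, a DNA-binding protein of the GLUT4 promoter; SLC4A1AP (kanadaptin); and SLC9A3R1 (NHERF1), a scaffold of sodium-proton exchangers. Without them 59 members were higher and 36 lower of 98 tested.

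Genes that lie near each other on a chromosome tended to change in the same direction in these libraries. Of the 101 tested members, 62 (61.4%) changed in the same direction as the median of the other tested genes within 5 Mb (its neighbours, of which a gene is counted as higher where its log2 fold change is above 0), against 64.9% of 7358 genes outside the members. Direction was shared by 44 of the 60 higher members but by only 17 of the 38 lower ones. The share that would arise without a tie between neighbours was not worked out. Neighbours were themselves listed genes, already selected for a difference, so few of their values lie near 0. Their median can thus lie off 0 where they divide almost evenly, as for SLC38A1 (20 of 46 higher, median -0.18). Calls lost or turned on its removal are limited by this. The median was taken off as a fixed value, so an adjusted p after its removal leaves out the spread among the neighbours. Such a p measures the spread between libraries and not whether a member differs from its neighbourhood. When that neighbour median was taken off each gene, 38 of the 60 higher members and 25 of the 38 lower members kept their call. The same share over all tested genes is not given here, so these counts do not set members apart from other genes. Members below whose call ended there are marked beside their values; the part of chromosomal position in the results was not tested further.

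RNA of amino acid carriers changed in both directions, with the glutamate carrier SLC1A3 and the cationic carrier SLC7A2 higher and the shared heavy chain SLC3A2 and the cystine carrier SLC7A11 lower. SLC1A3 (EAAT1, ENSG00000079215, chromosome 5, 36606355 to 36688334 on hg38), which takes up glutamate and aspartate with sodium, had 373, 451 and 434 normalized counts in knockout libraries, against 141, 137 and 145 in control libraries. No knockout library came near a control library, and the difference was 2.95-fold (log2 fold change 1.56, SE 0.13, adjusted p = 1.62e-09). SLC7A2 (CAT-2, chromosome 8, 17497088 to 17570573), a carrier of arginine, lysine and ornithine, had 2720.3, 2849.8 and 2981 counts in knockout libraries, against 1270.2, 1284 and 1408 in control libraries. Its 2 groups were as cleanly apart (log2 fold change 1.11, SE 0.06, adjusted p = 4.86e-12). The other cationic carrier listed, SLC7A1 (CAT-1), moved the opposite way, at 3042 ± 203 in knockout libraries and 3908 ± 317 in control libraries (SD, n = 3 each; log2 fold change -0.36, SE 0.07, adjusted p = 1.17e-04).

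Carriers of glutamine and other neutral amino acids differed among themselves. SLC38A5 (SNAT5), a sodium-coupled carrier of glutamine, asparagine, serine and histidine, had 2418, 2234 and 2285 counts in knockout libraries, against 1364, 1453 and 1664 in control libraries, without overlap (log2 fold change 0.63, SE 0.07, adjusted p = 1.7e-07). SLC1A5 (ASCT2), the neutral amino acid exchanger best known for glutamine uptake, averaged 5381 ± 158 in knockout libraries and 4537 ± 82.7 in control libraries (log2 fold change 0.25). SLC1A4 (ASCT1), its relative that carries serine and alanine, averaged 806 ± 8.45 in knockout libraries and 1154 ± 56.4 in control libraries (log2 fold change -0.52). The 2 relatives thus moved in opposite directions. SLC38A1 (SNAT1), a sodium-coupled glutamine carrier and the member with the highest count, averaged 9342 ± 173 in knockout libraries and 10403 ± 303 in control libraries, a small drop (log2 fold change -0.15, adjusted p = 0.0263) that missed the threshold without knockout 2 or without either of controls 2 and 3, with adjusted p from 0.0502 to 0.163. With the neighbour median taken off, SLC1A4 (-0.076), SLC1A5 (-0.048) and SLC38A1 (0.023) lost their calls, while SLC38A5 stood at 0.82. Once the trend with length and GC was taken off, SLC1A5 (0.10, adjusted p = 0.225) and SLC38A1 (0.074, adjusted p = 0.513) also lost theirs.

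SLC43A3, which is grouped here by its family number but is known as a purine nucleobase carrier (ENBT1), had 1043, 1107 and 1316 counts in knockout libraries, against 1864, 2052 and 1965 in control libraries. The groups did not overlap (log2 fold change -0.77, SE 0.08, adjusted p = 3.54e-08). SLC43A1 (LAT3), a carrier of leucine and other large neutral amino acids, was higher, at 2239.7 ± 91.5 in knockout libraries and 1731 ± 22.4 in control libraries (log2 fold change 0.37, adjusted p = 2.96e-05). It missed the threshold once the neighbour median was removed (0.14, adjusted p = 0.115). The 3 proton-coupled peptide and histidine carriers listed, SLC15A2, SLC15A3 and SLC15A4, were all higher, with log2 fold changes of 0.36, 0.96 and 0.26. The call of SLC15A2 was lost without knockout 3 or control 3 (adjusted p = 0.0505 and 0.0829). With the neighbour median removed none of the 3 stayed called. The call of SLC15A4 was also lost without knockout 1 or 2 or without control 2 or 3 (adjusted p from 0.122 to 0.288). SLC6A6, the taurine carrier (-0.23), and SLC38A9, the arginine sensor of the lysosome (-0.38), were lower. Each lost its call without some of the libraries, with adjusted p from 0.0556 to 0.111 for SLC6A6 without knockout 1, control 1 or control 2, and of 0.0910 and 0.142 for SLC38A9 without knockout 1 or control 3, and both lost it with the length and GC trend removed. SLC38A10, a poorly characterised relative of the glutamine carriers, had 3013, 3422 and 3769 counts in knockout libraries and 3132, 3009 and 3029 in control libraries and did not pass (log2 fold change 0.15, adjusted p = 0.106), though it did without knockout 1 (0.0045).

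SLC3A2 (CD98 heavy chain, chromosome 11, 62856102 to 62888875) is the glycoprotein that holds several SLC7 light chains at the cell surface. It had 4369, 4195 and 4156 normalized counts in knockout libraries, against 5949.5, 5855 and 6158 in control libraries. Every knockout library was below every control library (log2 fold change -0.50, SE 0.05, adjusted p = 1.03e-07), and the drop stood at -0.84 with the neighbour median taken off, its own neighbourhood being mostly higher (90 of 123 genes). The light chain SLC7A5 (LAT1), the main leucine carrier of proliferating cells, had 6808, 7411 and 7449 counts in knockout libraries, against 7417, 8055 and 8511 in control libraries. These ranges met, and the test did not pass (log2 fold change -0.15, SE 0.06, adjusted p = 0.0667); it passed without knockout 3 or control 1 (adjusted p = 0.0414 and 0.0197), with TMM or upper-quartile scaling, with adjustment over the tested genes only, with a replicate block, with the length and GC trend removed and with the neighbour median taken off, lower each time.

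The cystine-glutamate exchanger SLC7A11 (xCT), which supplies cysteine for glutathione, had 480.5, 565 and 556 counts in knockout libraries, against 1034, 692 and 816 in control libraries. Control 1 was the highest library and the groups did not overlap (log2 fold change -0.65, SE 0.11, adjusted p = 6.28e-05). After removal of the neighbour median it stood at -0.27 (adjusted p = 0.102). The y+L light chains SLC7A6 and SLC7A7, which exchange cationic for neutral amino acids, were higher. SLC7A6 had 544, 571 and 595 counts in knockout libraries, against 446, 424 and 500.4 in control libraries, and its call was lost without control 2 (adjusted p = 0.0641) and with the neighbour median taken off (-0.078). SLC7A7 had 94.8, 71.5 and 69.1 in knockout libraries, against 21.5, 27.2 and 43.6 in control libraries, without overlap (log2 fold change 1.37, SE 0.29, adjusted p = 5.72e-04).

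Set per kilobase of gene model, the ratio of SLC7A5 to its heavy chain SLC3A2 averaged 1.86 ± 0.14 in knockout libraries and 1.46 ± 0.0835 in control libraries (SD, n = 3 each). All 3 knockout ratios were above all 3 control ratios. The ratio of SLC7A6 to SLC3A2 averaged 0.0918 ± 0.0064 in knockout libraries and 0.0520 ± 0.0031 in control libraries. The ratio of SLC7A7 to SLC3A2 averaged 0.0186 ± 0.0028 in knockout libraries and 0.00516 ± 0.0018 in control libraries. That of SLC7A11 to SLC3A2 was 0.0677 ± 0.0075 in knockout libraries and 0.0760 ± 0.0155 in control libraries, a difference within the spread of the libraries. These are ratios of RNA levels and say nothing of how many protein pairs formed.

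Genes of the ATF4 pathway, which is known to raise transcription of amino acid carriers when amino acids run short, were mostly lower among those tested. Of the 20 genes of this list 13 were in the table and tested, 11 of them lower and 2 higher. Of all tested genes 46.7% were lower and 47.3% higher. The list's median was -0.51 on the log2 scale, against 0.14 over all tested genes. CTH, the enzyme that releases cysteine from cystathionine, averaged 144 ± 14.4 in knockout libraries and 371 ± 30.9 in control libraries (log2 fold change -1.36, adjusted p = 2.75e-08). DDIT3 (CHOP), a transcription factor induced by ATF4, averaged 323 ± 52.9 in knockout libraries and 784 ± 19.7 in control libraries (log2 fold change -1.29, adjusted p = 2.37e-09). The 2 that rose were EIF2AK1 and EIF2S1, an eIF2 kinase and the kinase substrate. ATF4 itself was not analysed here. Carriers of amino acids, peptides and amines did not move as 1 group, with 10 called higher and 8 lower of 20 tested. The part of the ATF4 pathway in their changes was not tested. Genes of amino acid sensing by mTORC1 at the lysosome divided, with 7 higher and 10 lower of 17. TSC1, an inhibitor of mTORC1, averaged 745 ± 37.6 in knockout libraries and 1386 ± 46.7 in control libraries (log2 fold change -0.89), and SESN3, a sestrin, averaged 980.3 ± 51.8 in knockout libraries and 1787 ± 47.1 in control libraries (log2 fold change -0.87).

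The C/EBP-ATF response element, searched as TGATGNAA on both strands in the RefSeq windows (GRCh38.p14) that run from 250 bases before to 50 after each start, was found in 9 of the 87 members with a window, or 10.3%, against 3.67% of all 27305 windows. It was in 6 of 31 windows of lower members and 2 of 51 windows of higher members, and 4 of the 9 were amino acid carriers. Those 4 are shown because they belong to the class that ATF4 is known to act on, with 30 bases each in the direction of the gene and the motif in capitals. A match is a description of letters and not a site of binding.
SLC3A2, chr11:62881719-62881748, plus strand: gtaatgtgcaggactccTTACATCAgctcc
SLC7A1, chr13:29595663-29595692, minus strand: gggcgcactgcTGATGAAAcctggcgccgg
SLC38A1, chr12:46266502-46266531, minus strand: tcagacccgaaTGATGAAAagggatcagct
SLC1A3, chr5:36596357-36596386, plus strand: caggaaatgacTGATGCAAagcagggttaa
The motif begins 38 bases after the start in SLC3A2, where it is read on the opposite strand, 8 bases after it in SLC7A1, 4 bases before it in SLC38A1 and 220 bases before it in SLC1A3. RefSeq's starts of SLC3A2, SLC38A1 and SLC1A3 differ from the gene starts in the deposited table, and that of SLC7A1 is the same, so each window belongs to 1 annotated start. SLC3A2, SLC7A1 and SLC38A1 were lower in the knockout and SLC1A3 was higher.

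**Figure D2:**
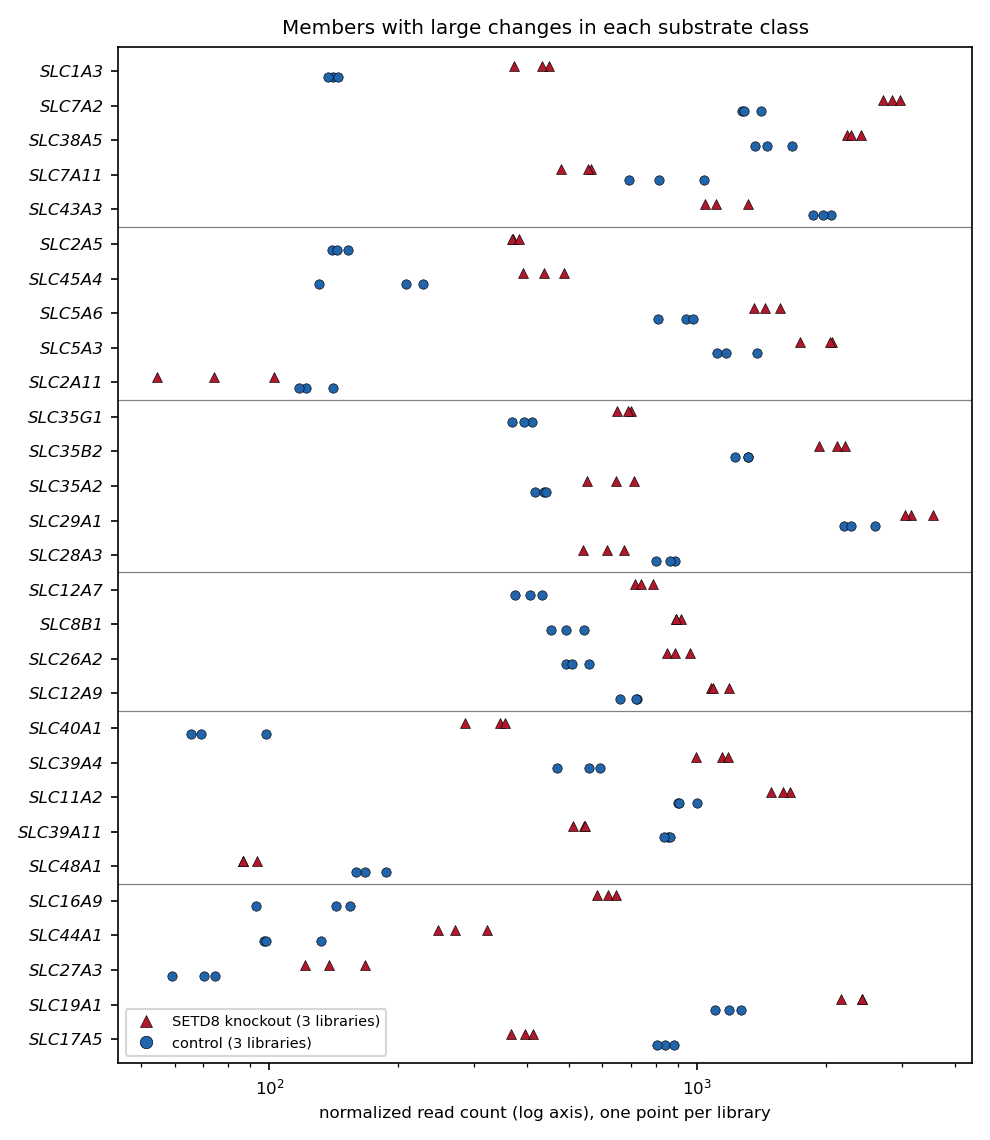
Normalized counts in each library (log10 horizontal axis) of 29 called members, those with the largest changes in each substrate class among members that averaged at least 100 and had no overlap between groups, with knockout libraries and control libraries in different colours. The separation of the groups was fixed by this choice; among the genes drawn, SLC16A9 and SLC40A1 have the largest fold changes.

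Sugar and polyol carriers were evenly divided, with the glucose carrier SLC2A1 lower and the fructose carrier SLC2A5 higher. SLC2A1 (GLUT1), the basal glucose carrier of most blood cells, averaged 2319.9 ± 106 in knockout libraries and 3065 ± 220.2 in control libraries (SD, n = 3 each), without overlap (log2 fold change -0.40, SE 0.06, adjusted p = 2.12e-05). SLC2A5 (GLUT5, chromosome 1, 9035107 to 9088478), which carries fructose, had 370.0, 368 and 383 counts in knockout libraries, against 152, 140.0 and 144 in control libraries. The groups were far apart with little spread within them (log2 fold change 1.36, SE 0.13, adjusted p = 1.14e-08). SLC2A11 (GLUT11), a facilitative sugar carrier, had 74.0, 54.6 and 103 counts in knockout libraries, against 141, 122 and 117 in control libraries (log2 fold change -0.75, adjusted p = 0.009). Knockout 3 lay close to the controls, and the call was lost without knockout 2 or control 1 (adjusted p = 0.0759 and 0.0547).

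SLC5A3 (SMIT1), the sodium-coupled myo-inositol carrier, had 1739.6, 2065 and 2039 counts in knockout libraries, against 1378, 1113 and 1166 in control libraries, all knockout values above all control values (log2 fold change 0.68, SE 0.08, adjusted p = 4.66e-07). It shares exons on the same strand with MRPS6, a mitochondrial ribosomal protein gene, which averaged 535 ± 74.6 in knockout libraries and 293 ± 6.44 in control libraries, so reads of the 2 genes may have been split by the counting, and its call was lost with the neighbour median removed (0.20, adjusted p = 0.0957). The proton-coupled myo-inositol carrier SLC2A13 went the other way (-0.53), and lost its call with the neighbour median (-0.02) or the length and GC trend (-0.25) removed. SLC5A6 (SMVT), which carries biotin and pantothenate with sodium and so falls here only by its family number, had 1440.4, 1563 and 1354 counts in knockout libraries, against 808, 938 and 974 in control libraries (log2 fold change 0.68, SE 0.08, adjusted p = 3.48e-07). SLC45A4, of the proton-coupled sugar carrier family, had 392, 439 and 488 in knockout libraries, against 131, 208 and 229 in control libraries, a rise of 1.25 on the log2 scale (adjusted p = 1.46e-06) in a region of chromosome 8 where 52 of 60 neighbours were higher. The remaining members were SLC2A4RG, higher by 0.55, and SLC2A6 (-1.25) and the sugar carrier SLC50A1 (SWEET1, -0.63), both lower. SLC2A6 lost its call with the neighbour median removed, and SLC50A1 lost it without knockout 2 or 3 or without control 2 or 3 (adjusted p from 0.0874 to 0.144).

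The SLC35 family, best known for nucleotide sugar carriers of the Golgi and endoplasmic reticulum, was higher in 9 of 10 cases, and its median log2 fold change was 0.35. Its nucleotide sugar and PAPS carriers bring activated sugars and a sulfate donor into the lumen, where glycosyltransferases and sulfotransferases use them. SLC35E1, SLC35F2, SLC35F3, SLC35F5 and SLC35G1 belong here by family number and are not established as such carriers. SLC35B2, which carries the sulfate donor PAPS, had 2213, 2116 and 1929 counts in knockout libraries, against 1221, 1314 and 1315 in control libraries. The groups did not overlap, at 1.62-fold (log2 fold change 0.70, SE 0.07, adjusted p = 1.84e-08). SLC35A2, the UDP-galactose carrier, had 709.8, 553 and 644 counts in knockout libraries, against 418, 438 and 443 in control libraries (log2 fold change 0.55, SE 0.10, adjusted p = 1.23e-04). SLC35G1 had 649, 699 and 687 in knockout libraries, against 409.8, 369 and 393 in control libraries, the largest rise of this family (log2 fold change 0.79, adjusted p = 3.14e-07).

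The other risers of the family were smaller, with log2 fold changes of 0.21 to 0.41. They were SLC35B4 (UDP-xylose and UDP-N-acetylglucosamine), SLC35C1 (GDP-fucose), SLC35D1 (UDP-glucuronate and UDP-N-acetylgalactosamine), SLC35E1, SLC35F2 and SLC35F5. With the neighbour median taken off, SLC35B4, SLC35F5, SLC35A2, SLC35B2 and SLC35G1 stayed called as higher, and SLC35C1, SLC35D1, SLC35E1 and SLC35F2 did not. SLC35C1, SLC35D1 and SLC35F2 also lost the call when some single libraries were left out: SLC35C1 without knockout 1 or control 1 (adjusted p = 0.0614 and 0.0848), SLC35D1 without knockout 1, knockout 2, control 2 or control 3 (0.117 to 0.224), and SLC35F2 without knockout 2 or control 1 (0.114 and 0.127). SLC35C1 also lost it once the trend with length and GC was taken off (0.27, adjusted p = 0.0918). SLC35F3 was the member that fell (-1.77), at 3.13, 3.97 and 4.67 in knockout libraries, against 15.3, 27.2 and 8.92 in control libraries, and its call was lost without control 1 or control 2 (adjusted p = 0.0665 and 0.188).

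The 2 listed nucleoside carriers moved apart. SLC29A1 (ENT1, chromosome 6, 44219505 to 44234151), the facilitator through which cytarabine and other nucleoside drugs enter leukaemia cells, had 3557, 3149.6 and 3049 counts in knockout libraries, against 2204, 2599.8 and 2289 in control libraries. Knockout libraries were all higher (log2 fold change 0.46, SE 0.07, adjusted p = 1.15e-05). SLC28A3 (CNT3), the sodium-coupled concentrating carrier of the same substrates, had 672, 541 and 614 counts in knockout libraries, against 800.1, 888 and 864 in control libraries. It was lower in all 3 knockout libraries (log2 fold change -0.49, SE 0.09, adjusted p = 1.30e-04), in a region of chromosome 9 where 1 of 11 neighbours was higher. With the neighbour median removed it stood at 0.18 (adjusted p = 0.168), which turned the direction. On the list of nucleoside analogue uptake and activation, 3 of 7 genes were higher and 4 lower. SAMHD1, which breaks down the triphosphates of deoxynucleosides and of cytarabine, averaged 349 ± 6.41 in knockout libraries and 229 ± 30.3 in control libraries (log2 fold change 0.62). TK1, the cytosolic thymidine kinase, averaged 3563 ± 103 in knockout libraries and 5170.4 ± 76.7 in control libraries (log2 fold change -0.54).

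Among carriers of inorganic ions, SLC12A7, SLC12A8 and SLC12A9 of the cation-chloride family were higher and SLC12A4 was lower. SLC12A7 (KCC4), a potassium-chloride cotransporter that lets cells lose volume, had 715, 738 and 786 counts in knockout libraries, against 374, 405 and 433 in control libraries. It was higher in all 3 (log2 fold change 0.88, SE 0.09, adjusted p = 6.43e-08), but 14 of its 15 neighbours on chromosome 5 were higher as well, and without their median it stood at 0.18 (adjusted p = 0.299). SLC12A9, a related protein of the family, had 1077, 1089 and 1188 counts in knockout libraries, against 722, 660.2 and 717 in control libraries (log2 fold change 0.67, SE 0.08, adjusted p = 2.54e-07). SLC12A8 had the largest fold change of the class, at 162 ± 18.5 in knockout libraries and 36.7 ± 9.92 in control libraries (log2 fold change 2.14). SLC12A4 (KCC1) was lower (-0.49), with overlap between groups, and lost its call without knockout 1, control 2 or control 3 (adjusted p from 0.0796 to 0.104).

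A list of regulators of carriers at the membrane held kinases, ubiquitin ligases, arrestin-domain proteins and the scaffold SLC9A3R1, itself a member. Of its 18 genes 12 were in the table and tested, 9 of them lower and 3 higher. Of all tested genes 46.7% were lower and 47.3% higher. The neighbour medians of these 12 genes had a median of -0.21, against 0.21 over all tested genes. WNK3, a kinase that inhibits potassium-chloride cotransport, averaged 106 ± 13.4 in knockout libraries and 238 ± 19.4 in control libraries (log2 fold change -1.17, adjusted p = 2.81e-06). TXNIP, the arrestin that removes GLUT1 from the surface, averaged 2472 ± 101 in knockout libraries and 1373 ± 56.5 in control libraries (log2 fold change 0.85, adjusted p = 2.82e-10). STK39 (SPAK), the kinase downstream of WNK proteins, was lower as well (-0.80) and is named here after its value was seen.

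SLC8B1 (NCLX), a sodium-calcium exchanger of the inner mitochondrial membrane that the name rule keeps among the members, had 889, 916 and 893 counts in knockout libraries, against 493, 544 and 455 in control libraries. All knockout values were higher, at 1.81-fold (log2 fold change 0.86, SE 0.09, adjusted p = 3.98e-08). SLC26A2, the sulfate carrier, had 849, 887 and 963 counts in knockout libraries, against 557, 494 and 510.3 in control libraries, also without overlap (log2 fold change 0.79, SE 0.09, adjusted p = 1.18e-07). RNA of this sulfate carrier and of the sulfate donor carrier SLC35B2 was thus higher in the same libraries. Both phosphate importers, SLC20A1 (0.46) and SLC20A2 (0.22), were higher, and the call of SLC20A2 was lost when any single library other than knockout 3 was left out (adjusted p from 0.0535 to 0.0710) and with upper-quartile scaling, and its direction turned with the neighbour median removed (-0.11). Of 4 tested genes with the SLC9 family number, the exchangers SLC9A3 (-0.80) and SLC9A8 (-0.53) and the scaffold SLC9A3R1 (-0.28) were lower. The exchanger SLC9B2 was higher (0.23). SLC9A3 lost its call without knockout 2, control 1 or control 2 (adjusted p from 0.102 to 0.282) and SLC9B2 without knockout 2, knockout 3, control 1 or control 2 (0.0823 to 0.197), and SLC9A3R1 turned to 0.25 with the neighbour median removed (adjusted p = 0.00699). SLC4A7, a sodium-bicarbonate cotransporter (0.21), SLC24A1, a potassium-dependent sodium-calcium exchanger (0.28), and SLC26A6, an anion exchanger (-0.29), were called but lost the call without some libraries: SLC4A7 without knockout 2 or 3 or control 2 or 3 (adjusted p from 0.0557 to 0.124), SLC24A1 without knockout 2, control 1 or control 3 (0.0589 to 0.0691) and SLC26A6 without control 2 (0.0799). SLC4A1AP stood at -0.44. SLC4A11, a carrier of protons and ammonia, averaged 354 ± 14.4 in knockout libraries and 426 ± 33.8 in control libraries and did not pass (log2 fold change -0.26, adjusted p = 0.057), though it did without control 1 (0.0383). With the neighbour median removed the calls of SLC4A1AP, SLC4A7, SLC9A8, SLC9B2 and SLC24A1 were lost, and SLC9B2 (-0.064) and SLC24A1 (-0.23) turned direction.

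Subunits of the sodium-potassium pump and the vacuolar proton pump, which build the gradients for these carriers, made up a list of 24 genes. The table, which holds genes already selected for a difference, had 12 of them, and the other 12 were not analysed here. All 12 tested subunits were higher, where 47.3% of all tested genes were higher. The subunits' median log2 fold change was 0.53, against 0.14 over all tested genes. Their neighbour medians had a median of 0.34, against 0.21 over all tested genes. The part of chromosomal position in these rises was not tested. ATP6V1C1, a subunit of the cytosolic part of the proton pump, averaged 2414 ± 20.7 in knockout libraries and 1144 ± 70.2 in control libraries (log2 fold change 1.08, adjusted p = 8.97e-12). ATP6V0B, of its membrane part, averaged 2592 ± 216 in knockout libraries and 1395 ± 72.5 in control libraries (log2 fold change 0.89, adjusted p = 5.63e-10).

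**Figure D3:**
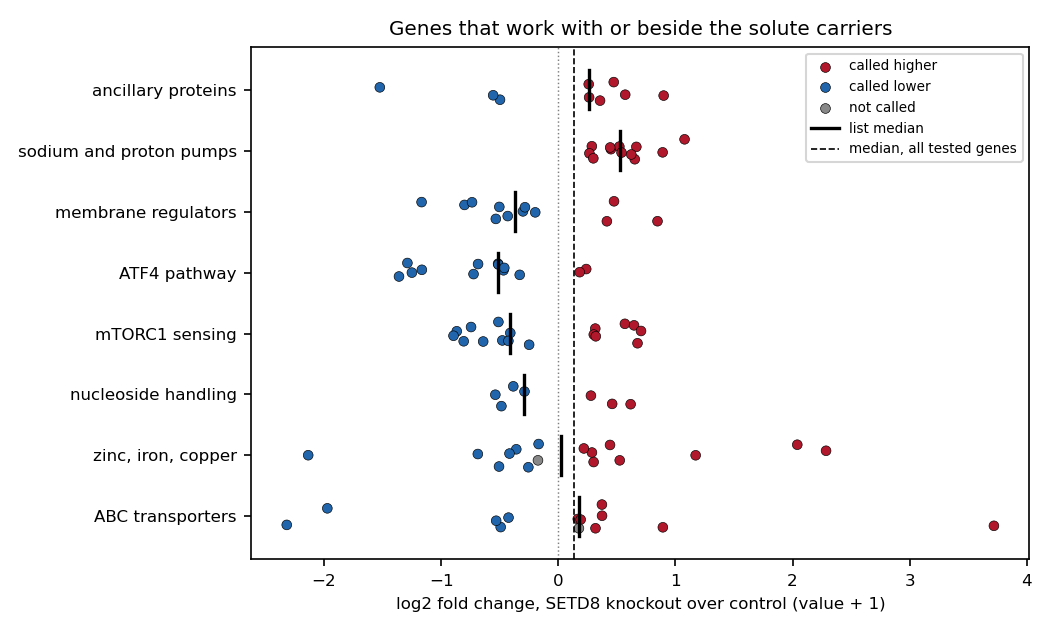
Each point is 1 tested gene of a list of proteins that work beside solute carriers, placed by its log2 fold change (SETD8 knockout over control, horizontal axis) within its list (vertical axis). All 12 tested pump subunits lie to the right of 0, and 11 of 13 tested genes of the ATF4 pathway lie to the left.

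Metal carriers were divided between rises and falls, with the iron exporter SLC40A1 showing the largest difference. SLC40A1 (ferroportin, ENSG00000138449, chromosome 2, 189560579 to 189583758 on the minus strand), the known route by which iron leaves cells, had 346, 355 and 286 normalized counts in knockout libraries, against 65.4, 69.0 and 98.1 in control libraries. The lowest knockout library was well above the highest control library, and the fitted difference was 4.25-fold (log2 fold change 2.09, SE 0.17, adjusted p = 1.76e-09). SLC11A2 (DMT1), which brings ferrous iron and other divalent metals across the plasma and endosomal membranes, had 1488, 1644 and 1583 counts in knockout libraries, against 996, 903 and 907 in control libraries. It was higher in all 3 (log2 fold change 0.75, SE 0.07, adjusted p = 1.42e-08). Its phagosomal relative SLC11A1 (NRAMP1) was lower, at 50.9 ± 12.9 in knockout libraries and 122 ± 26.7 in control libraries (log2 fold change -1.25, adjusted p = 1.62e-04). SLC48A1 (HRG1), a carrier of haem out of endosomes and lysosomes, had 86.5, 93.3 and 86.8 counts in knockout libraries, against 187, 167 and 159.5 in control libraries. Knockout values lay closer together than control values, and all were lower (log2 fold change -0.94, SE 0.17, adjusted p = 1.08e-04).

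The 250 bases before RefSeq's start of SLC40A1, which lies inside the gene as the deposited table bounds it, chr2:189580787-189581036 on the minus strand of GRCh38.p14, are shown since it had the largest difference among metal carriers, with the metal response element core, searched as TGCNCNC on both strands, in capitals.
SLC40A1: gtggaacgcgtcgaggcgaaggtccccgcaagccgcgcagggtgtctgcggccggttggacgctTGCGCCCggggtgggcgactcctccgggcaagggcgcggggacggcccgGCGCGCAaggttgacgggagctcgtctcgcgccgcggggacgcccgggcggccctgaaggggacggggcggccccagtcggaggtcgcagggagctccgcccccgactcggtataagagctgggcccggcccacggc
TGCNCNC is a loose form of this core. It occurred 2 times there, and it was common everywhere, in 52 of 87 member windows (59.8%) and 55.2% of all 27305. TGANNNNGC, a loose form of the antioxidant response element core, was in 41 member windows (47.1%), against 42.1% of all. The E-box CACGTG was in 10 member windows (11.5%), against 7.43% of all.

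Zinc carriers of the SLC39 (ZIP) family, which move zinc into the cytosol, were higher in 4 of 6 cases. SLC39A4 (ZIP4), known as the zinc uptake carrier of the gut, had 1139, 1179.6 and 992 counts in knockout libraries, against 557, 469.6 and 592 in control libraries. The knockout libraries were all higher (log2 fold change 1.03, SE 0.09, adjusted p = 6.75e-09). SLC39A11 (ZIP11) had 512, 544 and 547 counts in knockout libraries, against 855, 864 and 836 in control libraries. It was lower without overlap (log2 fold change -0.67, SE 0.08, adjusted p = 5.81e-07), in a region of chromosome 17 where 5 of 69 neighbours were higher, and stood at -0.10 without their median (adjusted p = 0.633). SLC39A7 (ZIP7), which releases zinc from the endoplasmic reticulum, was higher by 0.38 on the log2 scale, SLC39A3 by 0.47 and SLC39A10 by 0.50, while SLC39A9 fell by 0.27. Of these 4, SLC39A7 kept its call with the neighbour median removed and the others did not, and SLC39A9 also lost it once the trend with length and GC was taken off (-0.14, adjusted p = 0.12). The zinc exporter of the plasma membrane, SLC30A1 (ZnT1), was lower (-0.39) and SLC30A5 (ZnT5), which loads the Golgi with zinc, was higher (0.36).

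SLC31A1 (CTR1), the copper importer, was lower at 375 ± 14.4 in knockout libraries and 512 ± 65.2 in control libraries (log2 fold change -0.44), and turned to 0.34 once the median of its mostly lower neighbourhood was removed (adjusted p = 0.0122). The magnesium carrier SLC41A1 was lower (-0.35) and SLC41A3 was higher (0.33), a call that was lost without knockout 2 or control 1 (adjusted p = 0.0622 and 0.102) and with the neighbour median removed. Among genes that handle zinc, iron and copper beside the carriers, 8 of 16 were higher and 7 lower. MT2A, a metallothionein that binds zinc and copper, averaged 3268 ± 301 in knockout libraries and 792 ± 14.8 in control libraries (log2 fold change 2.04, adjusted p = 6.08e-16); metallothionein genes are near-identical, so its count may include reads of its relatives. ATP7A, the copper pump of the Golgi, averaged 196 ± 13.6 in knockout libraries and 317 ± 25.2 in control libraries (log2 fold change -0.69). TFRC, the transferrin receptor, named after its value was seen, averaged 22866 ± 895 in knockout libraries and 29306 ± 175 in control libraries (log2 fold change -0.36).

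Among carriers of monocarboxylates, organic ions, vitamins and lipids, 17 of 26 were higher. SLC16A9 (MCT9, ENSG00000165449, chromosome 10, 59650761 to 59736002), a monocarboxylate family member linked to carnitine transport, had 619, 645 and 584 counts in knockout libraries, against 93.0, 155 and 143 in control libraries. This was the largest rise of any member, at 4.81-fold (log2 fold change 2.27, SE 0.15, adjusted p = 5.75e-11). SLC22A5 (OCTN2), the sodium-coupled carnitine importer, was higher as well, at 321 ± 34.9 in knockout libraries and 176 ± 24.3 in control libraries (log2 fold change 0.87, adjusted p = 2.75e-05). SLC16A1 (MCT1), the main proton-coupled carrier of lactate and pyruvate, averaged 2968 ± 42.7 in knockout libraries and 1962 ± 79.7 in control libraries (log2 fold change 0.60, SE 0.06, adjusted p = 2.24e-08). SLC16A10 (TAT1), a carrier of aromatic amino acids and thyroid hormone, was higher (0.70), while SLC16A7 (MCT2, -0.40) and SLC16A14 (-1.48) were lower; the call of SLC16A7 was lost without control 1 (adjusted p = 0.0640) and with the length and GC trend removed (-0.01).

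BSG and EMB, the glycoproteins that chaperone monocarboxylate carriers to the plasma membrane, were higher, as was SLC16A1. Of the 5 tested SLC16 members 3 were higher and 2 lower. BSG (basigin) averaged 13981 ± 647 in knockout libraries and 7489 ± 141 in control libraries (log2 fold change 0.90, adjusted p = 1.33e-11). EMB (embigin), named after its value was seen, averaged 6564 ± 359.8 in knockout libraries and 4415 ± 180.1 in control libraries (log2 fold change 0.57, adjusted p = 3.33e-08). Of the 9 chaperones and ancillary proteins tested, 6 were higher and 3 lower; CNNM2, a protein of magnesium handling, averaged 173 ± 12.5 in knockout libraries and 499 ± 18.4 in control libraries (log2 fold change -1.52).

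SLC19A1 (the reduced folate carrier, chromosome 21, 45493572 to 45544411), the entry route of folates and methotrexate, had 2164, 2429 and 2420.5 counts in knockout libraries, against 1101, 1264 and 1187 in control libraries. The groups were far apart, at 1.97-fold (log2 fold change 0.98, SE 0.07, adjusted p = 1.37e-10); COL18A1 overlaps it on the opposite strand and was lower, at 73.0, 83.4 and 78.4 in knockout libraries and 168, 154 and 211 in control libraries. SLC19A2, a thiamine carrier, and the riboflavin carriers SLC52A2 and SLC52A3 were higher, by 0.48, 0.70 and 1.87 on the log2 scale. SLC23A2 (SVCT2), which takes up vitamin C with sodium, was lower (-0.51). With the neighbour median removed SLC52A2 (0.087) and SLC23A2 (-0.047) lost their calls.

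SLC44A1, a choline carrier, had 247, 271 and 323 counts in knockout libraries, against 97.1, 132 and 98.1 in control libraries. All knockout values were higher (log2 fold change 1.36, SE 0.16, adjusted p = 5.04e-07), although 0 of its 17 neighbours on chromosome 9 were higher, and with their median of -0.71 taken off it stood at 2.07. SLC27A3 (FATP3), a fatty acid transport protein with acyl-CoA synthetase activity, had 138, 121 and 167 counts in knockout libraries, against 74.6, 59.3 and 70.4 in control libraries. It was higher in all 3 knockout libraries (log2 fold change 1.04, SE 0.20, adjusted p = 1.79e-04); INTS3, which overlaps its exons on the same strand, was at 1027 ± 49.3 in knockout libraries and 1168 ± 97.3 in control libraries and did not pass the test. Its relatives SLC27A1 (0.32) and SLC27A2 (0.25) had smaller rises. SLC27A1 lost its call and turned direction with the neighbour median removed (-0.015), and SLC27A2 lost its call without control 1 (adjusted p = 0.0621).

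Lysosomal and vesicular carriers of the SLC17 and SLC18 families were lower in 3 of 4 cases, where 46.7% of all tested genes were lower. The count is small, and SLC17A7 and SLC18A2 in it rest on few reads. SLC17A5 (sialin, chromosome 6, 73593379 to 73654155), which exports sialic acid out of lysosomes, had 395, 412 and 366 counts in knockout libraries, against 838, 804 and 880.0 in control libraries. It was lower without overlap, at 2.15-fold (log2 fold change -1.10, SE 0.09, adjusted p = 1.3e-09). SLC17A7 (VGLUT1), a vesicular glutamate carrier of neurons, had few reads and was lower (-1.19). SLC18A2 (VMAT2), the vesicular monoamine carrier, had 3, 5 and 1 reads in knockout libraries, against 20, 36 and 30 reads in control libraries, the largest fall of any member, with a fitted change of -2.99 on the log2 scale (SE 0.58) that the pseudocount shrinks. SLC17A9, the vesicular nucleotide carrier, went the other way at 2849 ± 174 in knockout libraries and 2383 ± 55.7 in control libraries (log2 fold change 0.26), and was no longer called with the length and GC trend removed. SLC46A3, a lysosomal carrier, was higher (1.24, adjusted p = 0.00134).

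The remaining members of this class were SLC10A4 (0.89), SLC22A16 (0.53), a carnitine carrier that also takes up doxorubicin, and SLC22A23 (0.55), which were higher, and SLC10A7 (-0.74), SLC22A18 (-0.66) and the urea carrier SLC14A1 (-2.38), which were lower. SLC22A23 lost its call without knockout 2 or 3 or without control 2 or 3 (adjusted p from 0.0693 to 0.151), and SLC22A16 lost it with the neighbour median removed. SLC14A1 had 4, 1 and 5 reads in knockout libraries, against 19, 17 and 22 reads in control libraries. ABC transporters, the other large transporter superfamily, had 7 of 13 higher and 5 lower. ABCB1, the multidrug efflux pump P-glycoprotein, averaged 209 ± 9.76 in knockout libraries and 823 ± 57.9 in control libraries (log2 fold change -1.97, adjusted p = 8.77e-13).

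Levels between carriers were compared per kilobase of gene model and ordered by the mean over all 6 libraries. SLC7A5 was the highest, at 1522 normalized counts per kilobase in knockout libraries and 1685 in control libraries. SLC1A5 followed at 1615 in knockout libraries and 1362 in control libraries, so that in the knockout it stood above SLC7A5, by a margin close to the spread between libraries. SLC3A2 was at 819 in knockout libraries and 1156 in control libraries, and SLC38A1 was at 933 in knockout libraries and 1039 in control libraries. SLC39A7 was at 965 in knockout libraries and 743 in control libraries. Thus 4 of the 5 highest members in this order were carriers of neutral amino acids or their heavy chain. SLC3A2 and SLC38A1 were nearly level in it, and in the knockout alone SLC3A2 stood below SLC39A7, SLC38A1, SLC35B2 and SLC2A4RG. SLC35B2, SLC2A4RG, SLC29A1, SLC2A1 and SLC43A1 completed the 10 highest. Some carriers with large rises were far below them, with SLC16A9 at 139 in knockout libraries and 29.4 in control libraries, and SLC40A1 at 76.0 in knockout libraries and 17.9 in control libraries. SLC7A2, which also rose, was at 361 in knockout libraries and 167 in control libraries.

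**Figure D4:**
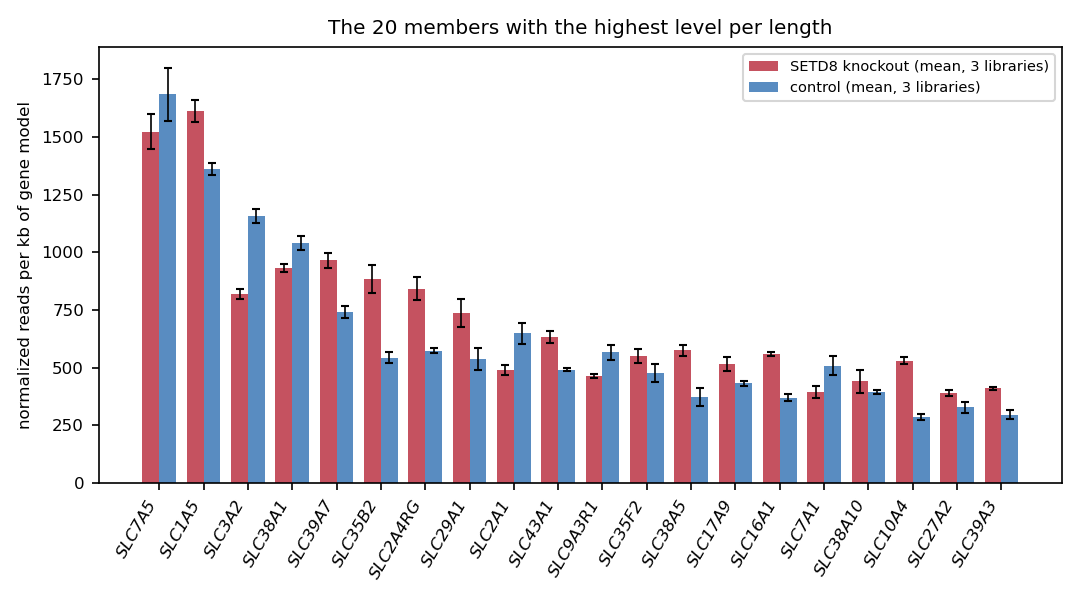
Mean normalized counts per kilobase of gene model (vertical axis) of the 20 highest members, ordered by the mean over all libraries, with knockout bars left of control bars and error bars of 1 SD over 3 libraries. SLC7A5 and SLC1A5 stand above the others in both groups; the knockout bar of SLC1A5 lies above that of SLC7A5, and the knockout bar of SLC3A2 lies below those of SLC38A1 and SLC39A7.

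The 4 members under a mean of 10 were too low to test. SLC9C1, a sperm-type sodium-proton exchanger, had 13, 8 and 11 reads in knockout libraries, against 0, 4 and 0 in control libraries. SLC4A10, a sodium-bicarbonate carrier of neurons, had 6, 0 and 6 reads in knockout libraries, against 0, 0 and 0 in control libraries. SLC38A4 had 0, 0 and 1 reads in knockout libraries, against 5, 4 and 19 in control libraries, and SLC9C2 had 1, 0 and 0 reads in knockout libraries, against 2, 12 and 7 in control libraries. These are counts of a few reads and allow no statement of size.

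The position of members on the chromosomes was set beside their direction. All 5 members on chromosome 8 (SLC7A2, SLC20A2, SLC39A4, SLC45A4 and SLC52A2) were higher, where 70.9% of the 268 other tested genes had a log2 fold change above 0. On chromosome 9, 3 of 4 members were lower, where 23.2% of the 332 other tested genes had one above 0, and SLC44A1 was the exception. Of the 60 higher members 44 had neighbours whose median was also above 0, and of the 38 lower members 17 had neighbours whose median was below 0. By class, 22 of 26 called carriers of monocarboxylates and the like kept their call with the neighbour median removed, against 9 of 18 called amino acid carriers. SLC1A3, SLC7A2, SLC38A5, SLC16A9, SLC40A1, SLC17A5, SLC2A5 and SLC19A1 were among those that kept it. Removal of a trend with gene length and GC content left 57 of 60 and 32 of 38 calls in place. For neither removal is the share of calls kept over all tested genes given here.

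**Figure D5:**
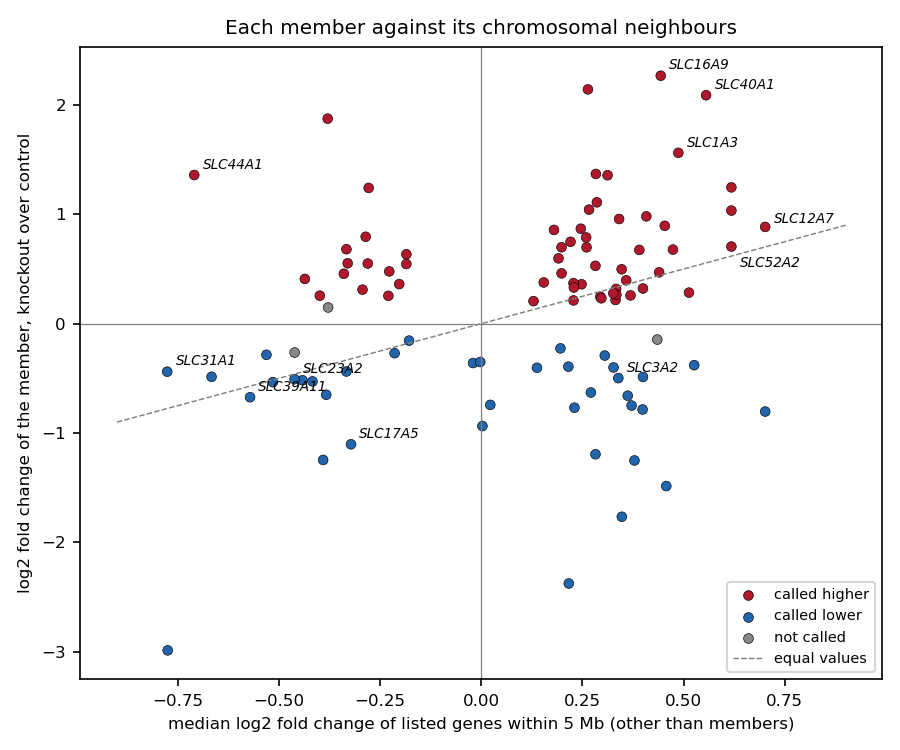
Each point is 1 tested member, with the median log2 fold change of the genes within 5 Mb on the horizontal axis and its own log2 fold change (SETD8 knockout over control) on the vertical axis, colour for the call and a dashed line of equal values. Members spread over all 4 quadrants, with 62 of 101 sharing the sign of their neighbours.

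Exons of 51 members overlap those of another annotated gene, 40 of them with a gene on the opposite strand. The sources used here do not say whether strand was used in counting, so counts of these members may hold reads of the partner.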

How the data were processed

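RNA-seq libraries of Kasumi-1 cells, 3 with a SETD8 knockout and 3 controls, were taken from 1 deposited table of genes. Per the labels' protocols, RNA was extracted with TRIzol, poly-T selected and made into libraries with a directional kit. Per the submitters' processing notes, HISAT2, DESeq2 and build hg38 were used; the sources used here name no versions, no gene counter and no strand setting. The authors deposited a normalized count per gene and library, a signal that is never negative: read counts divided by a size factor. Dividing by what 1 read is worth gave whole numbers within 0.001 for 100% of values; where 1 read is worth 0.991 (control 3) and 0.993 (knockout 2), whole reads are less certain. The authors also deposited a log2 fold change, an adjusted p-value and its raw p-value per gene, adjusted over 19860 genes, and the largest p-value listed was 0.049998.

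Genes with a mean of at least 10 were tested, 7516 in all, by limma-trend without a block, two-sided, on log2(value + 1) in limma 3.58.1 under R 4.3.3, which understates fold changes of low genes. The planned fit used all 6 libraries, and Benjamini-Hochberg adjustment assumed the authors' 19860 genes; a call is an adjusted p below 0.05. Recovered reads were tested with edgeR 4.0.16 (quasi-likelihood) and DESeq2 1.42.0 as alternatives, and the fits were tested on simulated data. Neighbours are tested genes outside the members within 5 Mb; the GC and length trend was a local regression with span 0.5. Values in every library are given, in each class, for the most changed called members (up to 5) that averaged at least 100 and had no overlap, and for SLC3A2 with its SLC7 partners; other members are given by means or fold change. From each partner list up to 2 called genes with a mean of at least 100 are named. Some genes that these rules take are not reported here. Values per kilobase divide by the deposited gene length. Members, classes and lists were chosen with earlier results of these data known. Chi-square per degree of freedom between libraries of the same group was 3.85 to 12.1, above counting noise, and each library was counted as 1 replicate. Promoter windows are RefSeq's, matched by symbol and chromosome for 87 of 105 members.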

Additional observations from a re-analysis of the deposited data

How the results depend on the processing

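By a log2 fold change of at least 1, 13 members were higher and 8 lower, against 60 and 38 by the adjusted p alone. The counts stayed between 55 and 61 higher and between 33 and 40 lower under TMM and upper-quartile scaling, edgeR and DESeq2 on recovered reads, other filters, pseudocounts of 0.5 and 5 and adjustment over the tested genes only. Leaving out 1 library gave 51 to 57 higher and 31 to 38 lower; 23 called members lost their call without at least 1 library, and 3 gained one. With the length and GC trend removed the counts were 57 and 34, and with the neighbour median removed 41 and 26. The same counts over all tested genes are not given for these settings.

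The neighbour median turned the direction of the median log2 fold change, amino acids, peptides and amines (-0.062), and of SLC15A4 (-0.11), SLC1A5 (-0.048), SLC38A1 (0.023), SLC7A6 (-0.078), SLC20A2 (-0.11), SLC24A1 (-0.23), SLC4A11 (0.20), SLC9A3R1 (0.25), SLC9B2 (-0.064), SLC31A1 (0.34), SLC27A1 (-0.015), SLC28A3 (0.18), SLC35D1 (-0.069), SLC35E1 (-0.049) and SLC35F2 (-0.015). The length and GC trend turned SLC38A1 (0.074). The cause of these turns was not tested.

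Replicate numbers are shared by the groups, but same-numbered libraries did not deviate together, with correlations of their deviations of 0.0086, -0.0033 and -0.050, and libraries did not all correlate best with their own number. The replicate block gave 60 members higher and 39 lower. Some members rest on few reads, and depth limits what can be said of SLC14A1, SLC17A7, SLC18A2, SLC35F3 and the 4 untested members. Table rows were chosen by the authors' test, so counts of calls hold for selected genes only.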
